A study of Mus musculus with 8 samples.

Results

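Ribosome footprints and RNA-seq counts of wild-type (WT) mouse embryonic stem cells (mESC) were compared gene by gene and by gene class, using 4 of the 8 libraries of the series. The 4 libraries were 2 Ribo-seq and 2 RNA-seq libraries of the WT genotype, from cultures at passages 5 to 10. The other libraries came from METTL5 knockout (KO) cells of the same passages and entered only as an alternative. RNA-seq started from Trizol-extracted RNA of cells close to confluence, and Ribo-seq from RNA of the monosome fraction of a sucrose gradient. The series calls the replicates biological, and the labels do not name separate cultures or clones, and p-values therefore reflect only how far these replicate libraries lie apart. Of 23845 genes in the tables, 12780 had a summed count of at least 20 over the 4 libraries and were tested. The ribosomal RNA precursor Rn45s was left out of the tests and of the library totals.

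Ribo-seq reads the short stretches of mRNA that a ribosome covers, so an mRNA gives footprints when it is both present and translated. RNA-seq of a cell extract reads any RNA that the library captures, coding or not. In most cells, mRNAs of ribosomal proteins, elongation factors, glycolytic enzymes and cytoskeletal proteins are abundant and heavily translated. Nuclear long noncoding RNAs, such as Xist on the inactive X chromosome and Kcnq1ot1 at an imprinted cluster, are transcribed but have no long reading frame in use. Replication-dependent histone mRNAs are translated in S phase and end in a stem-loop instead of a poly(A) tail.

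The 2 assays differed in depth. Without Rn45s the RNA-seq tables held 194462 and 212266 counts and those of the footprints 9673140 and 7487607. Rn45s took 7.99% and 3.33% of all RNA-seq counts and 7.58% and 10.9% of all footprint counts. At least 10 counts were reached by 2003 and 2088 genes in RNA-seq and by 12096 and 11809 in Ribo-seq. A floor of 3 counts corresponded to 15.4 and 14.1 CPM (counts scaled to a common library total) in the RNA-seq libraries and to 0.310 and 0.401 CPM in the footprint libraries, which covers counting error only. The effective gene lengths in the RNA-seq tables were 48.5 bases below the gene lengths (median), and the 2 were equal in the footprint tables. Pluripotency genes carried 0.599% and 0.743% of the footprints and fibroblast markers 0.0196% and 0.00948%, with 1 of 10 fibroblast markers at 0 in both Ribo-seq libraries. Primitive endoderm markers carried 0.0839% and 0.106%, and none of the 8 was at 0 in both.

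The most translated mRNAs of these cells were thin in the RNA-seq tables, and the genes that filled the RNA-seq tables had few footprints. The 100 genes with most footprints took 25.8% and 25.4% of the footprint counts but 6.10% and 1.96% of the RNA-seq counts. The 100 genes with most RNA-seq counts took 52.6% and 50.8% of the RNA-seq counts but 0.368% and 0.408% of the footprints. The lists shared 1 gene, Lars2, which encodes the mitochondrial leucyl-tRNA synthetase. Lars2 stood at 49665 and 8588 CPM in RNA-seq, so that 1 gene in replicate 1 accounts for much of the gap between 6.10% and 1.96%. Its footprints stood at 993 and 1657 CPM. The RNA-seq libraries of Lars2 did not overlap its footprint libraries, but the log2 ratio of 4.46 (SE 1.42) did not pass the test (edgeR adjusted p = 0.127). Without RNA-seq replicate 1 it was 2.70 (edgeR adjusted p = 1.64e-13).

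**Figure D1:**
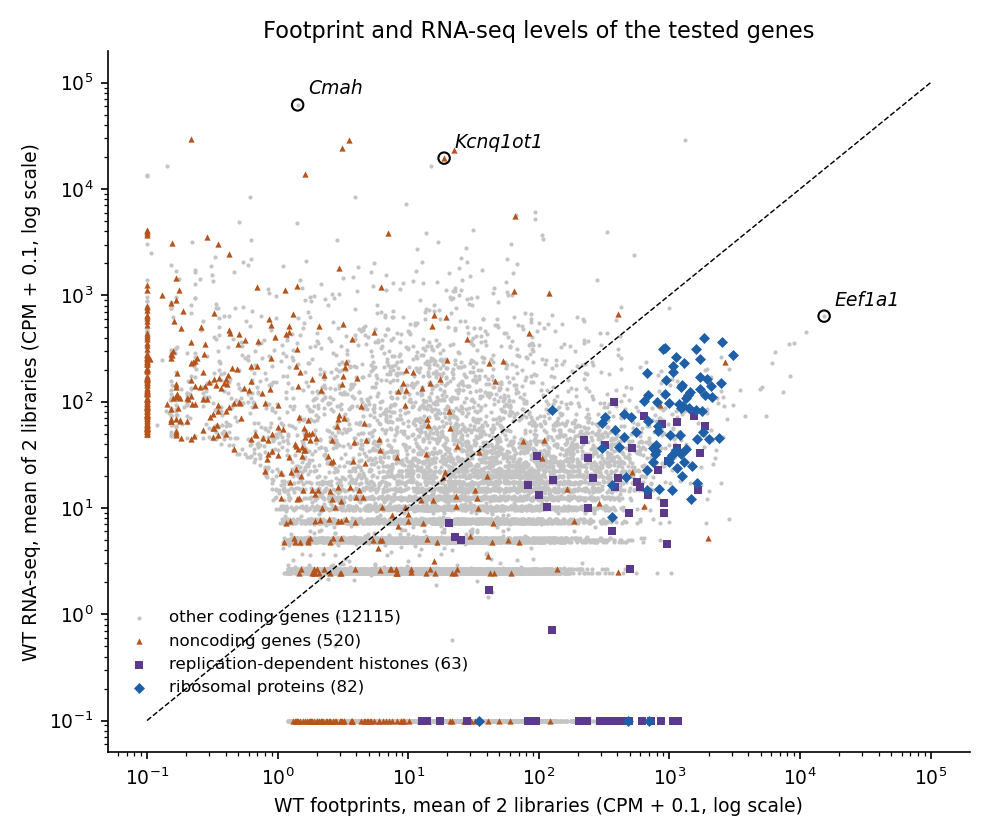
Mean level of each tested gene in the 2 WT RNA-seq libraries (vertical axis, CPM + 0.1, log scale) against its mean in the 2 WT Ribo-seq libraries (horizontal axis, CPM + 0.1, log scale), 1 point per gene, with the dashed line marking equal levels. Ribosomal protein and histone genes lie to the lower right, noncoding genes mostly to the left, and the points at the lowest position of an axis are at 0 in both libraries of that assay.

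Of the tested genes, 58.1% were called at an edgeR adjusted p below 0.05. They comprised 2106 genes higher in RNA-seq (16.5% of those tested) and 5321 higher in footprints (41.6%). At an unadjusted p below 0.05 there were 7916 genes. The RNA-seq side made up 28.4% of the calls with library totals and 39.3% with DESeq2's size factors. The median log2 ratio of RNA-seq to footprints over all tested genes was -2.19, and -0.85 when the 3030 genes at 0 in both RNA-seq libraries and the 251 at 0 in both footprint libraries were set to their bounds. DESeq2 moved this median by 1.07 and TMM by 0.40, so class values are given relative to it. A gene is said to pass the count minimum through 1 assay alone where the other assay gave under 20 counts, so that its level in the first assay decided whether it was tested. By this measure 812 genes passed through RNA-seq alone and 10791 through Ribo-seq alone, the latter including 5060 of the 5321 footprint-higher genes. The number of footprint-higher genes fell to 3433 without Ribo-seq replicate 1 and to 3408 without replicate 2.

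Across the 12780 tested genes, RNA-seq and footprint CPM were weakly related (Spearman 0.12, Pearson 0.07 on the log2 scale), also over the 12260 coding ones (0.19 and 0.14). Genes are not independent replicates, and many RNA-seq values rest on a few counts. The RNA-seq replicates related to each other by 0.69 and 0.75, and the Ribo-seq replicates by 0.98 and 0.98.

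Among coding genes, calls in the 2 directions followed the footprint level, which itself enters the ratio, so the counts are a description. All but 4 of the 485 tested coding genes under 1 footprint CPM were higher in RNA-seq. Most of these could pass the minimum only through RNA-seq. Between 1 and 10 CPM, 742 of 4107 were higher in RNA-seq and 119 in footprints. Between 10 and 100 CPM, 520 of 5776 were higher in RNA-seq and 3348 in footprints. Between 100 and 1000 CPM, 26 of 1748 were higher in RNA-seq and 1668 (95.4%) in footprints. From 1000 CPM upwards none of 144 was higher in RNA-seq and 142 (98.6%) were higher in footprints, with a median log2 ratio of -4.67.

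Cmah, which encodes the hydroxylase that makes the sialic acid Neu5Gc, was the leading gene of the RNA-seq tables. Its gene spans 24327404 to 24477377 of chromosome 13 (GRCm38, plus strand) and shares no exon base with a gene on the other strand. It stood at 71509 and 51982 CPM in RNA-seq and at 1.18 and 1.47 CPM in footprints. The RNA-seq libraries lay far above the footprint libraries, with a log2 ratio of 15.52 (SE 0.51, edgeR adjusted p = 2.66e-198).

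Eef1a1, the elongation factor that delivers aminoacyl-tRNA to the ribosome, had the highest mean footprint level, with Hsp90aa1 above it in replicate 2 (12699 CPM). The gene spans 78478449 to 78489151 of chromosome 9 (GRCm38, minus strand). Its footprints stood at 18114 and 12498 CPM and its RNA-seq level at 700 and 573 CPM. The footprint libraries were higher, with a log2 ratio of -4.59 (SE 0.33, edgeR adjusted p = 1.08e-41).

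Several genes had over 1000 RNA-seq CPM and no footprint count in either library. Rorb, a nuclear receptor of retina and cortex, stood at 11598 and 15585 CPM in RNA-seq, at least 77746-fold above the floor of 3 counts over both Ribo-seq libraries. Olfr613, an odorant receptor gene, stood at 3137 and 4351 CPM (at least 21417-fold), and Rhox8, a reproductive homeobox gene, at 2186 and 3911 CPM (at least 17438-fold). Gjc3, a glial connexin gene, stood at 1062 and 1739 CPM (at least 8009-fold). Fitted ratios of genes at 0 depend on the prior count and are not given. Zfp488, a zinc finger transcription factor gene of oligodendrocytes, stood at 13021 and 19614 CPM against 1 footprint count, a ratio of pooled counts of 282519 (95% interval 50689 to 11160500). Tyr, tyrosinase of pigment cells, stood at 1965 and 1911 CPM against 1 footprint count. These genes are known from differentiated cells, and none reached 1 CPM in footprints.

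At the other end stood housekeeping mRNAs. Hsp90aa1, a cytosolic chaperone, had 9695 and 12699 footprint CPM and 422 and 490 RNA-seq CPM. Gapdh, a glycolytic enzyme, had 9296 and 8724 footprint CPM and 364 and 347 RNA-seq CPM. Npm1, the nucleolar chaperone nucleophosmin, had 7454 and 7246 footprint CPM and 139 and 108 RNA-seq CPM. In all 3, footprints were higher, with log2 ratios of -4.62 (SE 0.34), -4.66 (SE 0.34) and -5.90 (SE 0.37). The widest gap among the 12 most footprinted genes was that of Eif4a1, the helicase that unwinds mRNA leaders, with 5749 and 5171 footprint CPM and 97.7 and 47.1 RNA-seq CPM (log2 ratio -6.25, SE 0.39). The narrowest was that of Pkm, a pyruvate kinase, with means 22.0-fold apart.

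The pluripotency factors followed the abundant mRNAs in part. Pou5f1 had 771 and 714 footprint CPM and 87.4 and 84.8 RNA-seq CPM (log2 ratio -3.11, SE 0.36, edgeR adjusted p = 6.78e-17). Sox2 had 311 and 341 footprint CPM and 15.4 and 28.3 RNA-seq CPM (-3.88, SE 0.46). Nanog had 306 and 498 footprint CPM and 268 and 359 RNA-seq CPM, ranges that overlapped, and did not pass the test (-0.36, SE 0.30, edgeR adjusted p = 0.306). Of 10 mESC markers, 9 were higher in footprints, and 7 had passed the minimum through Ribo-seq alone. The share was 41.6% of all tested genes and 95.4% of coding genes at 100 to 1000 footprint CPM.

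Ribosomal protein genes, which encode the structural proteins of both ribosomal subunits, took 9.90% and 8.61% of the footprints and 0.741% and 0.815% of the RNA-seq counts. Of 82 genes, all of which were tested, 81 were higher in footprints and none in RNA-seq, against 41.6% and 16.5% of all tested genes. Of the 82, 33 had passed the minimum through Ribo-seq alone. Coding genes with many footprints had similar shares of footprint-higher calls, 95.4% at 100 to 1000 CPM and 98.6% from 1000 CPM upwards. The calls therefore do not set the class apart from such genes. The 82 genes had a median log2 ratio of -3.84, which is 1.64 under that of all tested genes. Without RNA-seq replicate 2 that distance shrank to 0.40, while the median over all genes dropped by 1.29. With genes at 0 set to their bounds, the class median relative to that of all tested genes was -2.96.

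Within the ribosomal protein class the size of the gap varied. Rps4x, the X-linked small-subunit protein, had 1614 and 1317 footprint CPM and 5.14 and 18.8 RNA-seq CPM (log2 ratio -6.90, SE 0.49, edgeR adjusted p = 1.01e-43). Rplp2, an acidic stalk protein, had 1670 and 1561 footprint CPM and 12.2 and 21.8 RNA-seq CPM (-6.55, SE 0.46). Rpl27 had 2260 and 2539 footprint CPM and 61.7 and 28.3 RNA-seq CPM (-5.75, SE 0.41). For these 3 genes both footprint libraries lay far above both RNA-seq libraries. At 3 ribosomal protein genes RNA-seq was at 0 in both libraries. Rps27, named after its value was seen, did not pass, with 158 and 96.6 footprint CPM and 87.4 and 80.1 RNA-seq CPM (-0.60, edgeR adjusted p = 0.155). Pseudogene copies of ribosomal protein genes share reads with them, and the estimated counts split such reads.

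Replication-dependent histone genes behaved alike. The 64 genes took 3.32% and 3.33% of the footprints and 0.0993% and 0.0952% of the RNA-seq counts. Of 63 tested, 60 were higher in footprints and none in RNA-seq, against 41.6% and 16.5% of all tested genes. Among coding genes at 100 to 1000 footprint CPM, 95.4% were higher in footprints. Because 57 of the 63 passed the count minimum through Ribo-seq alone, the shares of counts carry the class difference. RNA-seq was at 0 in both libraries for 25 of the 64. Hist1h3c had 987 and 1345 footprint CPM and no RNA-seq count, at least 158-fold more in footprints. Hist2h3c1 had 1460 and 837 footprint CPM and no RNA-seq count, at least 156-fold more. Hist1h1b, a linker histone, had 1094 and 2229 footprint CPM and 10.3 and 18.8 RNA-seq CPM (log2 ratio -6.81, SE 0.47, edgeR adjusted p = 3.32e-45). Copies of a core histone gene are nearly identical, so single histone genes are less certain than the class. The polyadenylated histone variants, which are made outside S phase too, had 9 of 11 genes higher in footprints, with 9 of the 11 passing the minimum through Ribo-seq alone. Among them H2afz stood at 1841 and 2065 footprint CPM and 108 and 47.1 RNA-seq CPM.

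The other housekeeping classes had the same order of shares. Translation factors took 4.91% and 4.003% of footprints and 0.375% and 0.330% of RNA-seq counts, with 39 of 42 genes higher in footprints. Chaperones took 6.12% and 5.95% against 0.252% and 0.245%, with 28 of 30 genes. Glycolytic genes took 2.70% and 3.24% against 0.187% and 0.181%, with 18 of 19. Cytoskeletal genes took 2.21% and 1.90% against 0.0701% and 0.0725%, with 21 of 22. Genes of hnRNP and SR splicing proteins took 3.58% and 3.62% against 0.150% and 0.149%, with 33 of 33. In each of these classes no gene was higher in RNA-seq, and the 2 footprint shares lay above both RNA-seq shares. Over all tested genes 41.6% were higher in footprints. Coding genes with many footprints had shares similar to these classes, 95.4% at 100 to 1000 CPM and 98.6% from 1000 CPM upwards. In the order above, 26, 15, 12, 17 and 24 genes passed the minimum through Ribo-seq alone, so the counts of calls describe the classes and are not support for the shares.

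**Figure D2:**
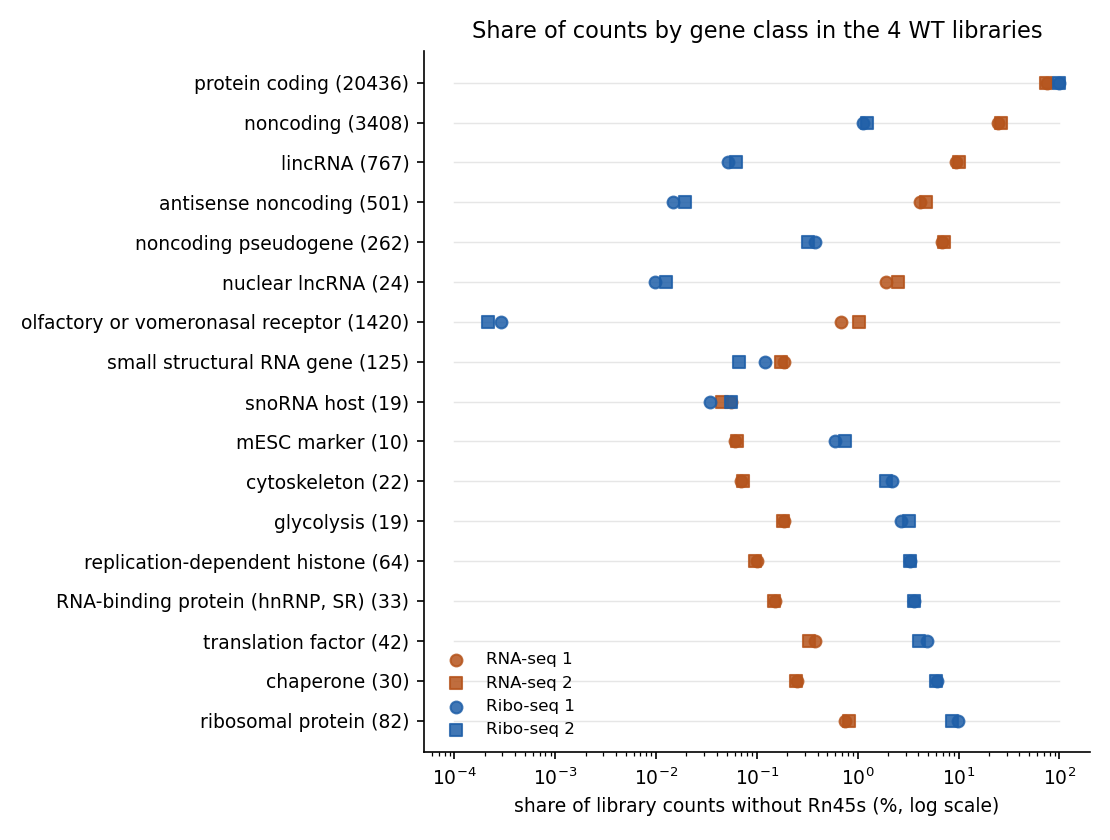
Share of library counts without Rn45s (horizontal axis, %, log scale) taken by each gene class (rows, with the number of genes in the tables) in the 2 WT RNA-seq and 2 WT Ribo-seq libraries, 1 symbol per library. The replicates of an assay lie close together in most rows, noncoding classes lie to the right in RNA-seq, and housekeeping classes lie to the right in footprints.

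Noncoding genes, those whose transcripts all carry noncoding RefSeq identifiers in the tables, lay on the other side. They took 24.4% and 26.2% of the RNA-seq counts and 1.13% and 1.23% of the footprints. The Wilson intervals at 95%, which cover counting error only, were 24.2% to 24.6% and 26.0% to 26.4% in RNA-seq and 1.12% to 1.13% and 1.22% to 1.24% in footprints. The gap between the assays was wider than that between the replicates of either assay. Of 3408 noncoding genes, 520 were tested. Among those, 337 (64.8%) were higher in RNA-seq and 44 (8.46%) in footprints, against 16.5% and 41.6% of all tested genes. Because 243 of the 520 passed the minimum through RNA-seq alone, the shares of counts, which need no minimum, carry the class difference. Coding genes took the rest, 75.6% and 73.8% of RNA-seq counts and 98.9% and 98.8% of footprints.

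The noncoding share came mostly from long intergenic RNAs (lincRNA), pseudogenes and antisense RNAs. LincRNA and pseudogenes are as GENCODE types them. The antisense class holds genes of that GENCODE type and noncoding genes whose symbol ends in os, or in os or ot plus a digit. It includes Kcnq1ot1, at 16870 and 22138 RNA-seq CPM, which is also counted among the nuclear RNAs below. LincRNA genes took 9.43% and 10.0% of RNA-seq counts and 0.0521% and 0.0627% of footprints, with 86 of 115 tested genes higher in RNA-seq and 2 in footprints. Noncoding pseudogenes took 6.84% and 7.14% against 0.379% and 0.325%, with 40 of 74 higher in RNA-seq and 13 in footprints. Antisense genes took 4.11% and 4.74% against 0.0148% and 0.0193%, with 92 of 108 higher in RNA-seq and 2 in footprints. Of those tested, 67, 19 and 80 had passed the minimum through RNA-seq alone. Over all tested genes 16.5% were higher in RNA-seq and 41.6% in footprints.

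A few transcripts made up much of these shares. The lincRNA 4930470H14Rik, on chromosome 17, stood at 32150 and 26202 CPM in RNA-seq and 2.996 and 3.87 CPM in footprints (log2 ratio 13.05, SE 0.47). A130077B15Rik, a lincRNA on chromosome 10, stood at 19726 and 28950 CPM against 2.87 and 3.19 CPM (12.95, SE 0.47). The processed pseudogene E030024N20Rik, on chromosome 19, stood at 32032 and 27013 CPM against 2 footprint counts, a ratio of pooled counts of 252373 (95% interval 69849 to 2084160). All 3 were far above their footprints in each library, and their functions are not named here.

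The few noncoding genes with more footprints included copies of coding or ribosomal sequence. Rps4l, a processed pseudogene related to Rps4x, had 773 and 507 footprint CPM and 20.6 and 0 RNA-seq CPM, and Rps15a-ps6 had 440 and 365 against 0 and 4.81 CPM. Gm25018, a ribosomal RNA gene by GENCODE type, had 1439 and 2506 footprint CPM and 10.3 and 0 RNA-seq CPM. For these genes reads shared with near-identical copies make the level uncertain.

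Nuclear long noncoding RNAs, a list of 24 genes, took 1.93% and 2.53% of RNA-seq counts and 0.00982% and 0.0126% of footprints. Of 13 tested, 10 (76.9%) were higher in RNA-seq and none in footprints, against 16.5% and 41.6% of all tested genes. Of the 13, 4 had passed the minimum through RNA-seq alone and 7 through Ribo-seq alone. Kcnq1ot1, the antisense RNA that silences the Kcnq1 imprinted cluster in cis, carried most of the share. Its gene spans 143203458 to 143296549 of chromosome 7 (GRCm38, minus strand), and 121 of its exon bases overlap exons of Kcnq1. Kcnq1ot1 stood at 16870 and 22138 CPM in RNA-seq and at 17.2 and 20.3 CPM in footprints (log2 ratio 10.02, SE 0.42, edgeR adjusted p = 2.45e-124). Kcnq1 itself, a potassium channel gene, had no RNA-seq count and 0.103 and 0 footprint CPM.

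Other nuclear RNAs were also higher in RNA-seq, at lower RNA-seq levels than Kcnq1ot1. Malat1, an RNA of nuclear speckles, stood at 838 and 1336 CPM in RNA-seq and 50.2 and 78.2 CPM in footprints (log2 ratio 4.09, SE 0.32). Xist, which coats the inactive X chromosome, stood at 854 and 835 CPM against 1 footprint count, a ratio of pooled counts of 14472 (95% interval 2580 to 573256). Jpx, an activator of Xist, stood at 398 and 593 CPM against 1 footprint count. The 3 were higher in RNA-seq in each library. The overlap of Xist exons with those of Tsix, its antisense RNA, is 1980 bases.

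Meg3 and Neat1 rested on few counts. Meg3, an imprinted RNA, had 12 RNA-seq counts in all, 30.9 and 29.8 CPM against 8.99 and 7.35 footprint CPM (log2 ratio 1.84, SE 0.66, edgeR adjusted p = 0.0104). Its call was lost without Ribo-seq replicate 1 (edgeR adjusted p = 0.228) and without replicate 2 (0.288). Neat1, the scaffold of paraspeckles, had 5 RNA-seq counts, 5.14 and 18.8 CPM against 1.14 and 1.47 footprint CPM (3.22, SE 1.11, edgeR adjusted p = 0.00799). That call was lost without RNA-seq replicate 2 (edgeR adjusted p = 0.375). In the KO libraries neither Meg3 (edgeR adjusted p = 0.0860) nor Neat1 (0.615) passed. H19 was under the count minimum and not tested.

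Host genes of small nucleolar RNAs had few calls in either direction. Their transcripts carry the small RNA in introns and are often read by ribosomes and then decayed. The 19 genes took 0.0555% and 0.0451% of RNA-seq counts and 0.0340% and 0.0555% of footprints, shares that overlapped. Of 17 tested, 16 through Ribo-seq alone, 2 (11.8%) were higher in RNA-seq and 4 (23.5%) in footprints, against 16.5% and 41.6% of all tested genes. Gas5 had 90.0 and 236 footprint CPM and 20.6 and 9.42 RNA-seq CPM (log2 ratio -3.46, SE 0.53, edgeR adjusted p = 4.74e-10), and its call was lost without RNA-seq replicate 1 (edgeR adjusted p = 0.352) or 2 (0.396). Snhg3 had 19.4 and 49.5 footprint CPM and no RNA-seq count, at least 4.68-fold more, and its call was lost without RNA-seq replicate 1 (edgeR adjusted p = 0.0822), RNA-seq replicate 2 (0.0850) or Ribo-seq replicate 2 (0.0625). Snhg11 stood at 341 and 313 RNA-seq CPM against 1.04 and 2.28 footprint CPM (7.64, SE 0.42).

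Small structural RNA genes had few calls too. They took 0.187% and 0.174% of RNA-seq counts and 0.120% and 0.0665% of footprints. Of 125 such genes, 22 were tested, 19 of them through Ribo-seq alone, and 2 (9.09%) were higher in RNA-seq and 6 (27.3%) in footprints, against 16.5% and 41.6% of all tested genes. Rprl3, an RNase P RNA-like gene, stood at 751 and 540 RNA-seq CPM and 14.8 and 16.8 footprint CPM (log2 ratio 5.35, SE 0.34). Rpph1, the RNA of RNase P, stood at 391 and 497 against 40.5 and 129 CPM (2.39, SE 0.31, edgeR adjusted p = 8.61e-14), a call lost without RNA-seq replicate 1 (0.354) or 2 (0.402). Rnu12, the U12 spliceosomal RNA, had 199 and 240 footprint CPM and no RNA-seq count, at least 29.7-fold more. Rmrp, the RNA of RNase MRP, stood at 705 and 631 RNA-seq CPM and at 778 and 34.5 footprint CPM. Its footprint replicates stood far apart, on both sides of the RNA-seq values, and it did not pass (edgeR adjusted p = 0.800). Without Ribo-seq replicate 1 it passed (log2 ratio 4.27, edgeR adjusted p = 1.55e-14).

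Olfactory and vomeronasal receptor genes had almost no footprints, and most had no RNA-seq count either. The 1420 olfactory and vomeronasal receptor genes took 0.688% and 1.04% of RNA-seq counts and 0.000291% and 0.000213% of footprints, with no footprint in either library for 1400 of them. No RNA-seq count in either library was found for 1213 of the 1420. Olfr613 alone held 610 and 924 of the 1337 and 2201 RNA-seq counts of the class. The 5 that were tested passed through RNA-seq alone. Zinc finger genes named Zfp took 3.37% and 4.45% of RNA-seq counts and 0.630% and 0.666% of footprints. Of 312 tested, 267 of them through Ribo-seq alone, 67 (21.5%) were higher in RNA-seq and 71 (22.8%) in footprints. Over all tested genes the shares were 16.5% and 41.6%. No footprint in either library was found for 8 of the 354 genes.

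**Figure D3:**
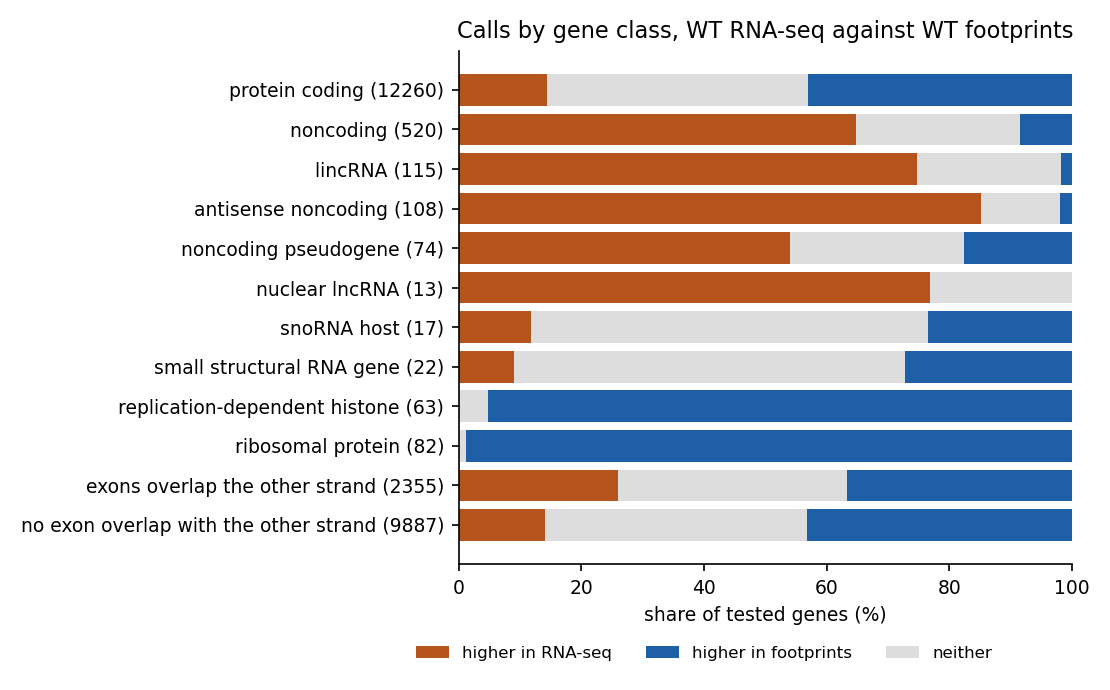
Share of tested genes (horizontal axis, %) called higher in RNA-seq, higher in footprints or in neither direction at an edgeR adjusted p below 0.05, by gene class (rows, with the number tested). Noncoding and antisense classes were mostly higher in RNA-seq, histone and ribosomal protein genes nearly all higher in footprints, and the shares of classes that passed the count minimum through 1 assay are set partly by that minimum.

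RNA-seq-higher calls made up a larger share of the genes that share exon bases with a gene on the other strand. Of 2355 tested genes with such an overlap, 611 (25.9%) were higher in RNA-seq, and of 9887 without one, 1384 (13.998%). Among coding genes the numbers were 502 of 2227 with an overlap and 1204 of 9578 without, and among noncoding genes 109 of 128 and 180 of 309. Of these coding genes, 129 with an overlap and 426 without had passed the minimum through RNA-seq alone. Of the noncoding genes it was 86 and 120, so the count minimum itself enters these shares. Genes are not replicates, and the difference between these shares was not tested. In shares of counts the contrast was small. Genes with an overlap held 20.8% and 20.3% of the RNA-seq counts and 17.6% and 17.5% of the footprints. Coding genes with an overlap held less of the RNA-seq counts (15.9% and 14.9%) than of the footprints (17.3% and 17.1%). Coding genes without one held 58.1% and 57.3% against 79.6% and 79.7%. Genes without overlap still held 76.2% and 76.6% of the RNA-seq counts, and 80.3% and 80.5% of the footprints.

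The RNA-seq level of a gene followed the footprints on the gene across from it. Each gene was paired with the opposite-strand gene of largest exon overlap, at least 50 bases. Where the partner had under 1 footprint CPM, 82 of 1024 genes (8.01%) had 10 or more counts in both RNA-seq libraries. With partners at 1 to 10 CPM it was 76 of 633 (12.01%), at 10 to 100 CPM 234 of 1019 (23.0%), and at 100 CPM or more 105 of 306 (34.3%). Among 19374 genes with no overlap it was 1070 (5.52%).

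The genes' own footprints rose over these bins too, from a median of 2.33 to 12.03 CPM. Among genes whose own footprints were under 1 CPM the order was kept, with 7.67% of 443, 8.81% of 227, 22.0% of 286 and 40.7% of 81 genes, against 3.43% of 9875 genes with no overlap. Over the 2982 pairs, RNA-seq CPM related to the partner's footprints (Spearman 0.32, Pearson 0.32) and to the gene's own footprints (0.26 and 0.23). The pairs share the libraries, and a gene can be in more than 1 pair. Whether the counting used strand is not given in the sources used, and its part in these values was not tested.

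**Figure D4:**
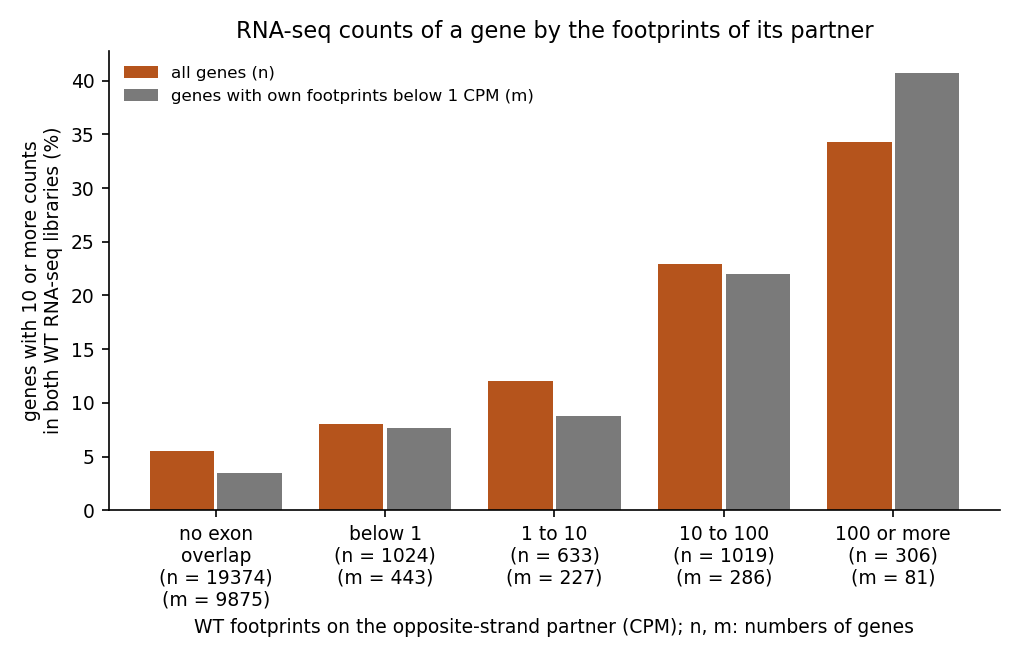
Share of genes with 10 or more counts in both WT RNA-seq libraries (vertical axis, %) by the WT footprint level of the opposite-strand partner gene (horizontal axis, CPM), for all genes and for genes with own footprints under 1 CPM. Both shares go up over the partner bins, from 8.01% to 34.3% for all genes and from 7.67% to 40.7% for genes with few footprints.

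Some of these pairs show the contrast gene by gene. Acat3, an acetyl-CoA acetyltransferase gene on the minus strand of chromosome 17 (12923813 to 12940600, GRCm38), shares 571 exon bases with Tcp1, a subunit of the cytosolic chaperonin, on the plus strand (12915701 to 12925067). Acat3 stood at 2288 and 2252 CPM in RNA-seq and 0.228 and 0.230 CPM in footprints (log2 ratio 13.08, SE 0.52). Tcp1 stood at 180 and 174 CPM in RNA-seq and 835 and 806 CPM in footprints (-2.21, SE 0.33). In each library Acat3 was thus the gene of the pair with more RNA-seq and Tcp1 the one with more footprints. These are counts over whole genes, not over the shared exons.

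Rpgrip1, a gene of the photoreceptor cilium, shares 1057 exon bases with Supt16, a subunit of the histone chaperone FACT. Rpgrip1 stood at 1936 and 1817 CPM in RNA-seq and 0.947 and 1.07 CPM in footprints, and Supt16 at 118 and 56.5 against 800 and 903 CPM. Gm15441, an antisense RNA on chromosome 3, shares 606 exon bases with Txnip, the thioredoxin-interacting protein gene. Gm15441 stood at 1643 and 1287 RNA-seq CPM with 1 footprint count, and Txnip at 30.9 and 47.1 RNA-seq CPM with 194 and 452 footprint CPM. Without RNA-seq replicate 1 or 2 the Txnip call was lost (edgeR adjusted p = 0.0613 and 0.0524). Snx22, a sorting nexin gene, stood at 1887 and 1456 CPM against 0.103 and 0.626 CPM, and Ppib, a cyclophilin across from it, at 20.6 and 14.1 against 253 and 249 CPM. In these pairs the gene rich in RNA-seq was poor in footprints, and its partner was the reverse. The pairs were chosen as RNA-seq-higher genes or with their values in view, so the choice partly sets this order.

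Mettl5, the 18S ribosomal RNA methyltransferase gene that the series targets, lies across from Ssb, which encodes the La protein. In WT cells Mettl5 stood at 432 and 622 RNA-seq CPM and 44.6 and 51.6 footprint CPM (log2 ratio 3.46, SE 0.31, edgeR adjusted p = 7.12e-27). Ssb stood at 257 and 170 RNA-seq CPM and 582 and 620 footprint CPM (-1.50, SE 0.32, edgeR adjusted p = 9e-06).

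The pair of Dph5 did not have that form. Dph5, an enzyme of diphthamide synthesis, stood at 3901 and 4337 RNA-seq CPM, and its noncoding partner A930005H10Rik had no RNA-seq count and 3.20 and 3.07 footprint CPM. Copg2, a coatomer subunit gene, stood at 2386 and 1545 RNA-seq CPM and 62.7 and 74.5 footprint CPM. Mest, an imprinted gene across from it, stood at 129 and 70.7 RNA-seq CPM and 189 and 106 footprint CPM. This pair had the order of Acat3 and Tcp1 in each library, with a narrower gap in footprints. In the pairs of Dph5 and Copg2 neither gene was among the most footprinted.

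Opposite-strand matches were also sought by sequence, within a locus and between loci. GENCODE transcripts of tested genes were aligned with BLAST to the coding sequences of the 200 coding genes with most footprints. Matches of at least 45 bases and 95% identity were kept. The 200 genes, Lars2 among them, and genes without a GENCODE transcript were left out of the counts that follow. A match on the opposite strand was held by 11 of 1995 RNA-seq-higher genes (0.551%), 4 of 4937 footprint-higher genes (0.0810%) and 3 of 5110 others. A match on the same strand was held by 6 (0.301%), 30 (0.608%) and 2 genes. Few genes of either direction are covered by such matches. None of the counted genes matched a mitochondrial transcript, and the 200 genes were not examined for this. Small structural RNA genes were matched by 11.3% of RNA-seq-higher genes on the opposite strand and by 11.9% on the same strand, without a strand difference, and by 5.87% and 6.77% of footprint-higher genes.

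The sequences of 3 such matches are shown because they let the strand relation be read directly. Each is a window of 30 bases, written 5′ to 3′ on the strand of its own gene (GENCODE M21 transcripts, GRCm38), and each pair consists of reverse complements. Capitals mark bases that differ between the 2 genes once one of them is reverse-complemented. The first pair is from 2 chromosomes, chr3:37715106-37715135 in the 5′ UTR of Gm5148 and chr13:90924618-90924647 in the coding sequence of Rps23.
Gm5148: agccaacagagaaacattggctactttaac
Rps23: gttaaagtagccaatgtttctctgttggct
The second pair is chr3:50370733-50370762 in the 3′ UTR of Slc7a11 and chr15:98931829-98931858 in the coding sequence of Tuba1b.
Slc7a11: ttggccaggtcaccaccAAgtaccacagtg
Tuba1b: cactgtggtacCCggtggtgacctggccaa
The third pair is 1 place read on both strands, chr17:12924444-12924473, in the 3′ UTR of Acat3 and the coding sequence of Tcp1.
Acat3: gtcatcaagggctccagagtgaacagcatt
Tcp1: aatgctgttcactctggagcccttgatgac

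Gm5148, whose transcript matches Rps23 over 398 bases at 100% identity, stood at 14278 and 12199 CPM in RNA-seq and had no footprint, at least 75728-fold more in RNA-seq. Rps23, a small-subunit ribosomal protein gene, stood at 139 and 75.4 CPM in RNA-seq and 1356 and 1318 CPM in footprints (log2 ratio -3.65, SE 0.36). Slc7a11, the cystine transporter gene, matches Tuba1b over 373 bases at 96.2% identity. Slc7a11 stood at 6272 and 3504 CPM in RNA-seq and 0.414 and 0.401 CPM in footprints (13.45, SE 0.51). Tuba1b, an alpha-tubulin gene, stood at 42.8 and 44.9 CPM in RNA-seq and 1683 and 751 CPM in footprints (-4.78, SE 0.40).

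Samd8, a gene of ceramide metabolism, matches Sumo2, a small ubiquitin-like modifier, over 202 bases. It stood at 3152 and 3184 RNA-seq CPM and 15.3 and 18.2 footprint CPM, and Sumo2 at 262 and 377 RNA-seq CPM and 965 and 894 footprint CPM. Of the 11 RNA-seq-higher genes with an opposite-strand match, 5 share exons at one locus with the matched gene, among them Acat3 and Rpgrip1, and the other 6 match a gene elsewhere. The exceptions have values too. Ciapin1 matches Rpl7a over 796 bases on the other strand and was higher in footprints (26.9 and 25.1 RNA-seq CPM, 277 and 272 footprint CPM). Whether reads of the matched genes entered the counts of these genes was not tested.

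**Figure D5:**
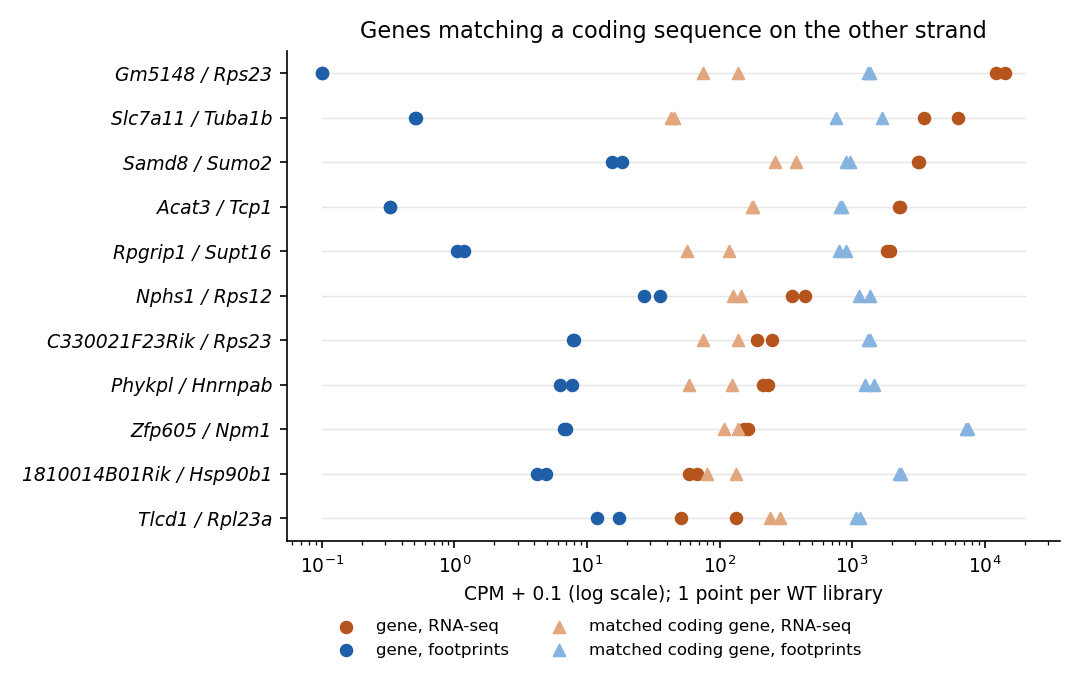
Level (horizontal axis, CPM + 0.1, log scale) of the 11 RNA-seq-higher genes that match an abundant coding sequence on the opposite strand, and of the matched coding gene, in each WT RNA-seq and WT Ribo-seq library (1 point per library). In each row the gene's RNA-seq points lie to the right of its footprint points, and the matched gene's footprints lie to the right of its RNA-seq points.

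The same contrast in the METTL5 KO libraries called 2196 genes higher in RNA-seq and 5571 higher in footprints. Of the 1959 WT RNA-seq-higher genes that were tested in the KO, 1695 (86.5%) were called in the same direction and 4 in the opposite one. Of the 5321 footprint-higher genes, 4646 (87.3%) were called in the same direction and 11 in the opposite one. Noncoding genes took 27.7% and 25.8% of the KO RNA-seq counts and 1.29% and 1.35% of the KO footprints, and ribosomal protein genes 0.475% and 0.455% against 9.46% and 10.1%.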

How the data were processed

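RNA-seq and Ribo-seq tables of WT mESC were used. Each library is a table of 23845 genes. Bowtie2 2.3.4.3, RSEM and mm10 are named by the submitters' processing notes, which give no settings for strand or alignment here. The authors deposited expected counts, estimates in which RSEM splits shared reads, per the file headers. The deposited TPM served 1 alternative. FPKM, also deposited, was left aside. Expected counts were rounded for the tests.

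CPM used library totals without Rn45s. RNA-seq was tested against Ribo-seq by the quasi-likelihood F-test of edgeR 4.0.16 (R 4.3.3, robust fit) on genes with a summed count of at least 20, with Benjamini-Hochberg adjustment over all 12780 genes and a threshold of 0.05. SEs were derived from the F statistics. A group at 0 was given a bound of 3 counts over both libraries, and with 1 to 3 counts a ratio of pooled counts with an exact interval, counting error only. Replicates differed by more than sampling noise (chi-square per degree of freedom 5.71 in RNA-seq and 19.5 in Ribo-seq). Coding and noncoding genes were told apart by RefSeq identifiers in the tables. GENCODE M21 (GRCm38) gave other types, positions and overlaps and matched 22682 symbols. Matches were found with BLAST 2.17.0. The steps were tested on simulated counts.

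The members and lists were chosen with earlier results of these data known. Named genes were a fixed set of 15 genes, the 12 RNA-seq-higher genes of largest ratio with at least 20 counts in each RNA-seq library, the 12 footprint-higher genes with most footprints, up to 3 called genes per class and direction, and the 8 RNA-seq-higher genes with most RNA-seq counts among those with an opposite-strand overlap. One gene that this rule names is not reported here. Tyr, Lars2, Rmrp, Rps27, H2afz, Slc7a11, Samd8, Ciapin1, Snx22, Txnip and the partner genes were chosen with their values in view, as were the lincRNA, pseudogene, receptor and Zfp classes and the limits of 50 overlapping bases and of 45 bases and 95% identity. Alternatives were TMM scaling, DESeq2 1.42.0, limma 3.58.1 (voom, and log2(TPM + 1) with a pseudocount of 1), Rn45s kept, other filters, a replicate block, the KO libraries and leaving out each library.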

Additional observations from a re-analysis of the deposited data

How the results depend on the processing

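The 2106 RNA-seq-higher genes numbered 3519 with no filter and 802 with a mean count of at least 50, where fewer genes are tested, and 1549 to 1801 without 1 library. The 5321 footprint-higher genes numbered 3408 to 5049 without 1 library (3433 and 3408 without Ribo-seq replicate 1 and 2), and the cause was not tested. RNA-seq made up 28.4% of calls, 33.5% with TMM, 39.3% with DESeq2, 40.4% with no filter and 13.3% with a mean count of at least 50. With the replicate number as a block, 1782 and 3902 genes were called, and Meg3 and Neat1 did not pass (edgeR adjusted p = 0.115 and 0.0991). Deviations of same-numbered libraries correlated by 0.0057. The RNA-seq libraries are shallow and count noise can hide a shared deviation, so this value does not show whether the numbers pair the libraries. Of 1212 values of 87 named genes under 14 alternatives, none reversed, 42 fell short of the threshold and 9 newly passed it, 7 of them for Lars2.

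Class medians relative to the median of all tested genes moved as follows, and the cause was not tested. With genes at 0 set to their bounds it was -0.13 for coding, 6.51 for noncoding and 9.59 for antisense genes. In the same way it was -4.12 for replication-dependent histones, -2.96 for ribosomal proteins, 0.68 for snoRNA hosts and 4.11 for nuclear lncRNAs. For genes with and without opposite-strand exon overlap it was 0.42 and -0.13. For coding genes (-0.095) it was -0.096 with TMM, -0.097 with DESeq2, -0.091 with voom, -0.064 with log2(TPM + 1), -0.096 with Rn45s kept, -0.14 with filterByExpr, -0.19 with no filter, -0.027 with a mean count of at least 50, -0.093 with the replicate block, -0.12 with the KO libraries, and -0.15 to -0.087 without 1 library. For noncoding genes (7.84) it was 7.37 with DESeq2, 6.89 with voom, 6.32 with log2(TPM + 1), 9.82 with filterByExpr, 7.57 with no filter, 5.14 with a mean count of at least 50, and 6.73 to 9.68 without 1 library. For antisense genes (11.77) it was 11.56 with DESeq2, 10.55 with voom, 7.96 with log2(TPM + 1), 12.15 with filterByExpr, 9.05 with no filter, 14.52 with a mean count of at least 50, 12.34 with the KO libraries, and 12.04 to 12.67 without 1 library. For replication-dependent histones (-3.99) it was -5.23 with log2(TPM + 1), -5.24 with the KO libraries, and -6.47 to -3.79 without 1 library. For ribosomal proteins (-1.64) it was -2.13 with DESeq2, -2.70 with voom, -2.22 with no filter, -1.04 with a mean count of at least 50, -2.34 with the KO libraries, and -1.88 to -0.40 without 1 library. For snoRNA hosts (1.34) it was 0.85 with DESeq2, 0.27 with voom, 0.91 with log2(TPM + 1), 0.92 with filterByExpr, 0.54 with no filter, -1.16 with the KO libraries, and 1.03 to 2.88 without 1 library. For nuclear lncRNAs (5.42) it was 4.35 with voom, 4.42 with log2(TPM + 1), 4.05 with no filter, 14.05 with a mean count of at least 50, and 6.20 to 8.69 without 1 library. For small structural RNA genes (-4.43) it was -0.062 with DESeq2, 0.81 with voom, -3.46 with filterByExpr and -1.88 with no filter. It was 0.0066 with a mean count of at least 50, and -4.61 to -3.73 without 1 library. With genes at 0 set to their bounds it was 1.95, and 15 of the 22 tested had no RNA-seq count. The sign of this class median thus depends on the treatment of genes at 0. For genes with opposite-strand exon overlap (1.08) it was 0.72 with DESeq2, 0.48 with voom, 0.64 with log2(TPM + 1), 0.98 with filterByExpr, 0.75 with a mean count of at least 50, 1.52 with the KO libraries, and 0.998 to 1.81 without 1 library. For genes without such overlap (-0.25) it was -0.25 with TMM, -0.16 with DESeq2, -0.095 with voom, -0.13 with log2(TPM + 1), -0.25 with Rn45s kept, -0.24 with filterByExpr, -0.14 with no filter, -0.16 with a mean count of at least 50, -0.24 with the replicate block, -0.39 with the KO libraries, and -0.61 to -0.23 without 1 library. Depth limits the RNA-seq side, since 10791 tested genes had under 20 RNA-seq counts.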
